A study of Mus musculus with 12 samples.

Results

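The genes examined were the topoisomerases that anthracyclines bind and the genes that handle the drug in the cell: Top2a, Top2b, Abcb1a, Abcb1b, Abcc1, Abcg2, Cbr1, Cbr3, Slc28a3 and Rarg. They were taken by symbol, 10 of the 53465 genes in the table. All 10 were present, and 9 passed the filter on low counts that left 16101 genes for testing; Slc28a3 did not. Hearts came from 4 groups of 3 male mice on a C57BL/6J background, 8 weeks old at the start, with 1 library per mouse. A17fl/fl mice carry floxed Adam17 alleles and no Cre, and A17α-MHCKO littermates carry the same alleles with Cre driven by the α-MHC promoter, which deletes exon 2 of Adam17 in cardiomyocytes and leaves the gene whole in the other cells of the heart. Each genotype received either normal saline (NS) or doxorubicin (DOX) at 5 mg/kg by intraperitoneal injection on days 0, 7, 14 and 21, which is 20 mg/kg in all. Left ventricles were collected 4 weeks after the last injection, so the values describe hearts well after exposure and not during it.

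Doxorubicin stabilizes the covalent complex of a type II topoisomerase with cut DNA, which keeps the DNA broken. Top2a is the form of dividing cells and the main target in tumors, while Top2b is the form of cells that no longer divide, including cardiomyocytes. The drug is pumped out of cells by transporters of the ABC family. Mouse Abcb1a and Abcb1b each encode a P-glycoprotein, which human cells make from a single gene, and Abcc1 (MRP1) and Abcg2 (BCRP) are further efflux pumps. The carbonyl reductases Cbr1 and Cbr3 turn doxorubicin into the alcohol doxorubicinol. Slc28a3 is a concentrative nucleoside carrier and Rarg a retinoic acid receptor that can repress Top2b transcription. Variants near the human counterparts of both have been linked with anthracycline cardiotoxicity.

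The upstream sequences of the topoisomerase and P-glycoprotein genes are shown because the members of each pair, though closely related in protein, varied differently across these hearts. Whether the sequences relate to that variation was not tested. Each run is the 250 bases before the RefSeq start site on the GRCm38.p6 build, written 5′ to 3′ on the strand of the gene, with CCAAT or its reverse complement ATTGG in capitals. The Top2a window is chr11:99024190-99024439 on the minus strand, the Top2b window chr14:16364956-16365205 on the plus strand, the Abcb1a window chr5:8566841-8567090 on the plus strand and the Abcb1b window chr5:8797897-8798146 on the plus strand.
Top2a: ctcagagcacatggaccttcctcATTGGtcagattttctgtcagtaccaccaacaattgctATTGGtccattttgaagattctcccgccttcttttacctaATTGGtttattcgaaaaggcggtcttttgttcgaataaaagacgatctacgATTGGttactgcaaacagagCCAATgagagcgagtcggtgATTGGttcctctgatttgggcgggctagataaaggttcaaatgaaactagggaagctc
Top2b: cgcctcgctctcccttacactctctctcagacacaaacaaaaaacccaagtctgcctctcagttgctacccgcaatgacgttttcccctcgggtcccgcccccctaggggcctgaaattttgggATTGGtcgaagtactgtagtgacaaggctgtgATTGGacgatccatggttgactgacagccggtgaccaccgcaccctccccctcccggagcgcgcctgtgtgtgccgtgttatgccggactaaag
Abcb1a: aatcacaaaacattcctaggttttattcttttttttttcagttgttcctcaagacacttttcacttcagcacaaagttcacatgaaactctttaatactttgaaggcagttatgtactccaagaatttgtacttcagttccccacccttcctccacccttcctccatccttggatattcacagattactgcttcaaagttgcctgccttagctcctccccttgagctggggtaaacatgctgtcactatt
Abcb1b: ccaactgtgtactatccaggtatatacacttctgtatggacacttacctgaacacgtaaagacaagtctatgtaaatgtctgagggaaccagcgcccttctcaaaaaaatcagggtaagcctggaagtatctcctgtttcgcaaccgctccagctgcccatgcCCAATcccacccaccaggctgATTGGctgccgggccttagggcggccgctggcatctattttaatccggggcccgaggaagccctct

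The Top2a window held 6 CCAAT letters in either orientation, a count reached by 0.0578% of the 32851 promoter windows in the table. The Top2b window and the Abcb1b window held 2 each, where 10.1% of all windows held 2 or more, and the Abcb1a window held 0. The letters TTTGAA, the core of the cell cycle homology region of many genes of dividing cells, occurred 2 times in the Top2a window and 2 times in the Abcb1a window on either strand, against 1.81% of all windows with 2 or more. They did not occur in the other two windows. GGGCGG, the GC box, occurred 1 time in each of the Top2a, Top2b and Abcb1b windows and in 32.7% of all windows at least once. Both strands were searched, none of these motifs contains another, and a match marks only these letters. For Abcb1a the RefSeq start lies outside the transcripts of the GENCODE M21 annotation, so that its window may not be upstream of the start used in heart. Of the 10 genes, 9 had a window.

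Libraries held between 15950717 and 21725076 counts. Adam17 was measured over the whole gene, of which only exon 2 is deleted, and was at 54.4 ± 14.5 CPM (counts scaled to a common library size by TMM; SD, n = 3) in A17fl/fl + NS and 34.8 ± 0.579 CPM in A17α-MHCKO + NS. After doxorubicin it was at 49.9 ± 2.88 CPM in A17fl/fl and 32.3 ± 4.45 CPM in A17α-MHCKO hearts, and in both treatments the genotypes did not overlap. The summed level of 8 cardiomyocyte genes was 20937 to 49125 CPM, as a heart label implies. These genes were higher in every doxorubicin library than in every saline library of the same genotype, at 45139 to 49125 against 20937 to 42545 CPM in A17fl/fl and at 42347 to 47158 against 31185 to 38412 CPM in A17α-MHCKO. Summed fibroblast markers were lower after doxorubicin in A17α-MHCKO, at 1512 to 1732 against 1889 to 2940 CPM. Red cell markers were higher there, at 1133 to 1267 against 815 to 971 CPM. B cell markers were lower there, at 1.26 to 1.69 against 1.73 to 2.56 CPM, a low level at which the groups were barely apart. T and NK cell markers were higher after doxorubicin in A17fl/fl, at 8.76 to 11.4 against 3.23 to 6.14 CPM. Summed atrial markers ran from 332 to 7270 CPM within A17fl/fl + NS and from 1686 to 4786 CPM within A17fl/fl + DOX. In A17α-MHCKO they were at 3864 to 8361 CPM after saline and at 1803 to 3990 CPM after doxorubicin. Between doxorubicin and saline, 13.3% of all tested genes in A17fl/fl and 16.9% in A17α-MHCKO also had groups that did not overlap, and the marker shifts were not tested. Their part in the doxorubicin changes given for the genes was not tested. The library A17fl/fl + NS replicate 1 stood apart, with a mean correlation of 0.900 with the other libraries against 0.948 to 0.966 among the other 11. Its summed neutrophil markers were at 2325 CPM against 5.39 to 67.1 in the others, its fibroblast markers at 8733 CPM against 1329 to 2940, its macrophage markers at 2523 CPM against 696 to 1031, and its cardiomyocyte markers were the lowest of all. For several genes and lists the change without this library is given too. A bulk heart sample cannot tell fewer cells of a type from less RNA per cell.

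FPKM scale counts by library and by gene length. By this measure Cbr1 was the highest of the genes at 16.8 ± 1.94 FPKM (SD over 12 libraries). It exceeded the next gene in 12 of 12 libraries. The order depends on the length used, which was 1237 bases for Cbr1, 16348 for Top2b, 15250 for Abcc1 and 10736 for Abcg2. In CPM, which use no length, Top2b had a mean of 80.8 and Cbr1 of 20.9 over 12 libraries. Rarg at 6.38 ± 1.06 FPKM and Abcb1a at 6.16 ± 1.39 FPKM followed and exchanged places between libraries, Rarg being higher in 8 of 12. Top2b was at 4.95 ± 0.506 FPKM, Cbr3 at 4.0 ± 0.659 and Abcg2 at 3.77 ± 0.631, and these neighbors also overlapped. Below them Abcc1 at 2.40 ± 0.558, Abcb1b at 1.57 ± 0.483 and Top2a at 0.605 ± 0.571 FPKM were each lower than the gene before in 12 of 12 libraries. Slc28a3 was at the bottom with a mean of 0.00117 FPKM.

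**Figure D1:**
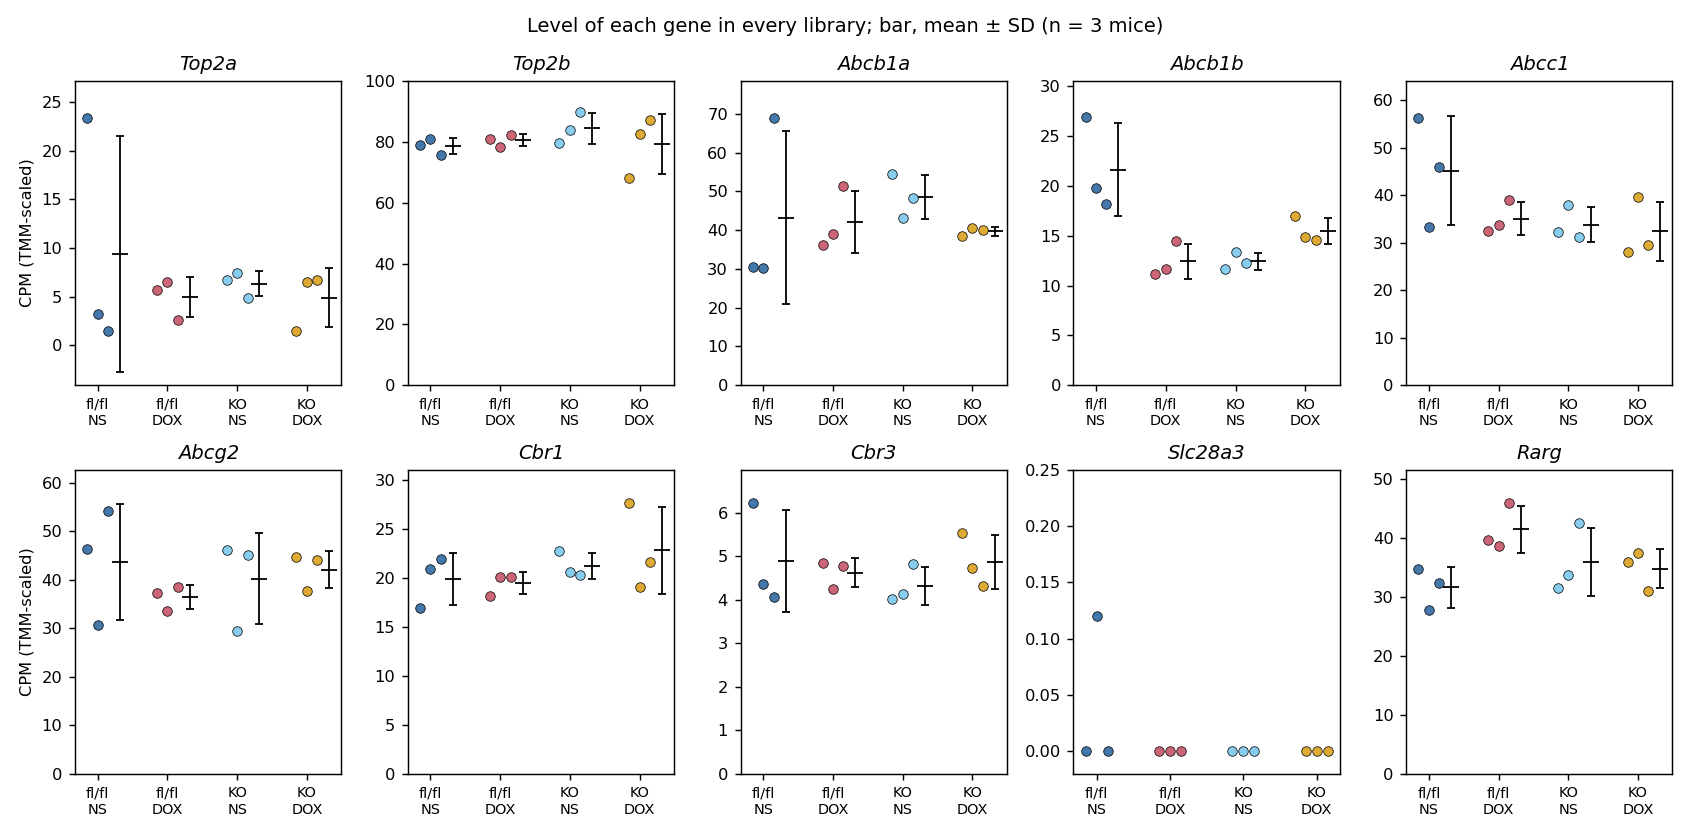
Level of each of the 10 genes in CPM (counts scaled by TMM library size) in the 12 libraries, with points for mice in replicate order, and mean ± SD beside them (not drawn for Slc28a3). KO stands for A17α-MHCKO. Top2b lay within a narrow band between 68.3 and 89.9 CPM, the 3 A17fl/fl + NS points of Abcb1b lay above all other libraries, and 1 Top2a point at 23.4 CPM stood far from the rest.

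No gene of the group passed an adjusted p under 0.05 (edgeR quasi-likelihood test, Benjamini-Hochberg over all tested genes) in any comparison. Among all tested genes the share that passed was 0% for doxorubicin in A17fl/fl hearts, 0% for doxorubicin in A17α-MHCKO hearts, 0.0186% for genotype after saline, 0.00621% for genotype after doxorubicin and 0% for the interaction, which asks whether doxorubicin acted differently in the genotypes. Averaged over genotypes, doxorubicin gave 0 of 9 members against 0% of all genes, and averaged over treatments, genotype gave 0 of 9 against 0.0248%. At an unadjusted p under 0.05 there were 2 of 9 members for doxorubicin in A17fl/fl (Abcb1b and Rarg) against 10.7% of all genes, 0 of 9 in A17α-MHCKO against 6.42%, 1 of 9 for genotype after saline (Abcb1b) against 10.1%, 0 of 9 for genotype after doxorubicin against 2.7% and 1 of 9 for the interaction (Abcb1b) against 5.99%. Averaged over genotypes 0 of 9 did so against 10.7%, and averaged over treatments 0 of 9 against 6.65%. The median log2 change of the 9 members under doxorubicin was -0.08 in A17fl/fl and -0.05 in A17α-MHCKO, beside -0.04 and 0.00 for all tested genes. By the limits of the study, which ask for an absolute log2 fold change over 1, a mean FPKM over 1 in either group and a p under 0.05 before adjustment, 0 members counted for doxorubicin in A17fl/fl and 0 for genotype after doxorubicin, against 3.86% and 0.288% of all genes at that level.

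**Figure D2:**
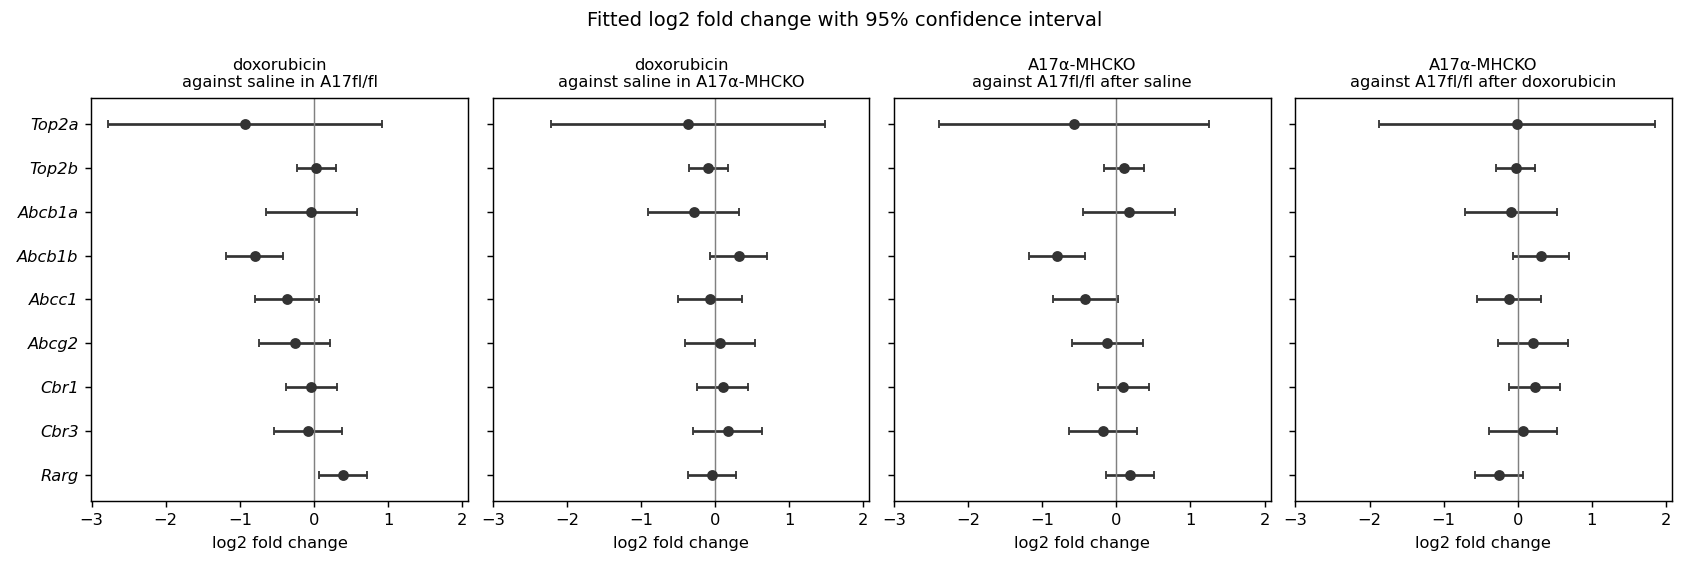
Fitted log2 fold change of the 9 tested genes (points) with 95% confidence interval (bars) in the comparisons of 2 groups. The interval of Abcb1b was below 0 for doxorubicin in A17fl/fl and for genotype after saline, that of Rarg was above 0 for doxorubicin in A17fl/fl, and all other intervals crossed 0. Top2a had the widest intervals.

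Top2b, the topoisomerase of resting cells, was among the steadiest genes of the heart. It was at 79.2, 81.1 and 75.7 CPM in A17fl/fl + NS and at 81.1, 78.4 and 82.5 CPM in A17fl/fl + DOX. In A17α-MHCKO + NS it was at 79.7, 83.9 and 89.9 CPM and in A17α-MHCKO + DOX at 68.3, 82.7 and 87.1 CPM. All groups overlapped. Its coefficient of variation over 12 libraries was 6.79%, beside a median of 22.5% over all tested genes, and 0.894% of these had a lower one. Doxorubicin gave a log2 fold change of 0.04 (SE 0.12, 95% interval -0.23 to 0.30) in A17fl/fl and -0.09 (SE 0.12, -0.35 to 0.17) in A17α-MHCKO. For genotype the change was 0.10 (SE 0.12) after saline and -0.02 (SE 0.12) after doxorubicin. The genes whose log2 CPM followed Top2b most closely were Supt7l (r = 0.934 over 12 libraries) and Hnrnpa3 (r = 0.909), both described here without a test. The same holds for the nearest genes of the other members below. Each was picked for the highest r among all tested genes, so a high r alone does not show a link.

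Top2a, the topoisomerase of dividing cells, was low and spread widely within groups. It was at 23.4, 3.23 and 1.5 CPM in A17fl/fl + NS, at 5.66, 6.52 and 2.61 CPM in A17fl/fl + DOX, at 6.67, 7.38 and 4.88 CPM in A17α-MHCKO + NS and at 1.45, 6.50 and 6.74 CPM in A17α-MHCKO + DOX. The first of these is the library with raised neutrophil and fibroblast markers. With it all groups overlapped, and without it the 2 other A17fl/fl + NS libraries lay below the 3 A17α-MHCKO + NS libraries. Its count ranged from 23 to 405 fragments. The log2 fold change under doxorubicin in A17fl/fl was -0.93 (SE 0.84, adjusted p = 0.714), and without A17fl/fl + NS replicate 1 it was 1.05 (adjusted p = 0.580), so its direction rests on that library. For genotype after saline it was -0.57 (SE 0.83, adjusted p = 0.859), and 1.41 without that library (adjusted p = 0.457). In A17α-MHCKO it was -0.37 (SE 0.84), and 0.07 without A17α-MHCKO + DOX replicate 1. The coefficient of variation was 90.3% over all libraries and 46.2% without A17fl/fl + NS replicate 1.

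Top2a followed the genes of dividing cells. Racgap1, which acts in cell division, and Mki67, the gene of the Ki-67 antigen, were the most similar of all tested genes, with r = 0.981 and r = 0.964 over 12 libraries (0.967 and 0.943 without A17fl/fl + NS replicate 1). With the mean log2 CPM of 20 proliferation genes, its r was 0.972 over 12 libraries and 0.974 over the other 11, and its Spearman rho 0.755 and 0.682. The libraries differed in their cell type markers, and the values are a description. None of the 20 genes passed an adjusted p under 0.05 in any comparison. In A17fl/fl hearts under doxorubicin 1 of the 20 had an unadjusted p under 0.05, Rrm2, a subunit of ribonucleotide reductase, with a log2 fold change of -1.51 (SE 0.65, adjusted p = 0.449), and 0.06 without A17fl/fl + NS replicate 1 (adjusted p = 0.962). Rrm2 was at 12.6 CPM in A17fl/fl + NS replicate 1 and at 1.24 to 3.58 CPM in the other libraries. The median change of the list was -1.14 in that comparison, beside -0.04 for all tested genes, and without A17fl/fl + NS replicate 1 it was 0.63, beside -0.01. For genotype after saline the median was -0.83 with that library and 1.03 without it, where 8 of the 20 genes were higher at an unadjusted p under 0.05 against 10.2% of all genes in either direction and 0 passed an adjusted p under 0.05. Among 18 promoter windows of 17 of these genes, 10 held CCAAT letters at least 2 times (55.6%) against 10.1% of all windows, and 7 held TTTGAA (38.9%) against 16% of all windows. GGGCGG, the GC box, was also more frequent, in 15 of the 18 windows (83.3%) against 32.7% of all windows. It occurred at least 2 times in 8 (44.4%) against 16.7%, so the excess was not particular to CCAAT and TTTGAA.

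**Figure D3:**
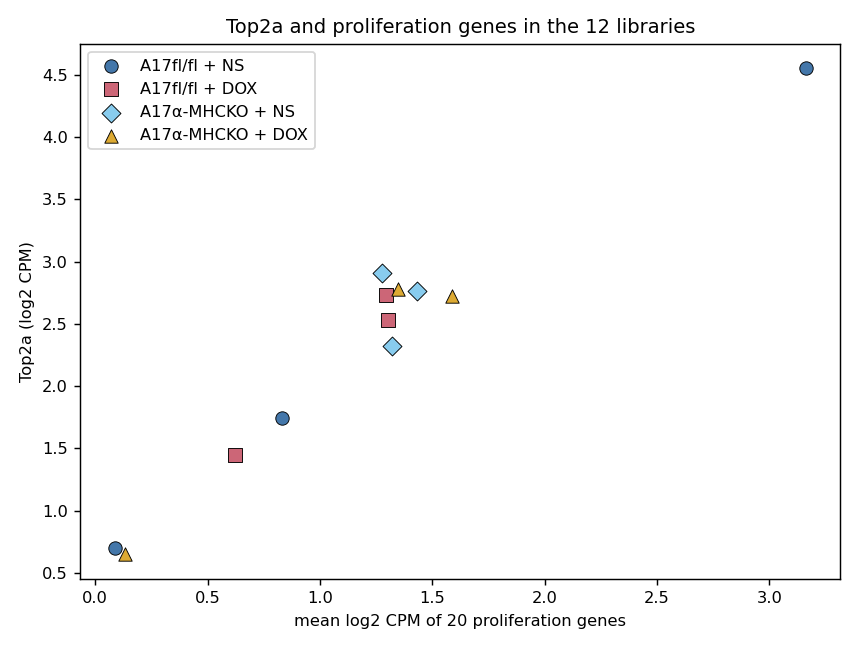
Top2a (log2 CPM, vertical) against the mean log2 CPM of 20 proliferation genes (horizontal) in the 12 libraries, 1 point per mouse. The point at the upper right is A17fl/fl + NS replicate 1 at 4.55 and 3.16. Both remaining A17fl/fl + NS points lie below all A17α-MHCKO + NS points on both axes, and the DOX groups overlap with the rest.

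Because Top2b was steady, its share of the summed Top2 level was set by Top2a. The FPKM used a length of 16348 bases for Top2b and 10734 for Top2a, and the share depends on these. Of the FPKM of both genes, Top2b made up 69.0% in A17fl/fl + NS replicate 1, and elsewhere its share ran from 88.2% to 97.1%. By group the share was 86.8 ± 15.5% in A17fl/fl + NS, 91.5 ± 3.47% in A17fl/fl + DOX, 89.7 ± 2.28% in A17α-MHCKO + NS and 91.9 ± 4.32% in A17α-MHCKO + DOX (SD, n = 3).

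Of the other topoisomerases, 4 of 5 were tested and 0 of 4 passed an adjusted or an unadjusted p under 0.05 in the comparisons of 2 groups and in the interaction. Their summed level was 75.3 to 81.0 CPM in A17fl/fl + NS and 60.2 to 75.0 CPM in the other groups. Of 15 tested genes that repair topoisomerase lesions, 0 passed an adjusted p under 0.05. Rbbp8, which starts the resection of broken DNA ends, had an unadjusted p under 0.05 for doxorubicin in A17fl/fl, with a log2 fold change of -0.74 (SE 0.30, adjusted p = 0.433), and for genotype after saline, with -0.65 (SE 0.30, adjusted p = 0.492). Without A17fl/fl + NS replicate 1 these were -0.36 and -0.27, and neither unadjusted p was under 0.05. Rbbp8 was at 12, 6.94 and 5.58 CPM in A17fl/fl + NS and at 5.60, 4.31 and 4.79 CPM in A17fl/fl + DOX, and A17fl/fl + NS replicate 1 was again the highest.

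Abcb1b had the smallest p of the 9 tested genes in every comparison of 2 groups and in the interaction. It was at 27.0, 19.8 and 18.2 CPM in A17fl/fl + NS and at 11.2, 11.6 and 14.5 CPM in A17fl/fl + DOX. In A17α-MHCKO + NS it was at 11.7, 13.3 and 12.3 CPM and in A17α-MHCKO + DOX at 17, 14.9 and 14.6 CPM. All 3 saline-treated A17fl/fl hearts lay above the other 9, and in A17α-MHCKO hearts the order was the reverse, with all 3 doxorubicin libraries above the 3 saline libraries. Groups did not overlap for 2 of 9 members under doxorubicin in A17fl/fl (Abcb1b and Rarg) against 13.3% of all genes, for 2 of 9 in A17α-MHCKO (Abcb1b and Abcb1a) against 16.9%, for 1 of 9 between genotypes after saline (Abcb1b) against 10.9% and for 2 of 9 between genotypes after doxorubicin (Abcb1b and Rarg) against 14.1%.

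The log2 fold change of Abcb1b under doxorubicin was -0.80 in A17fl/fl (SE 0.17, 95% interval -1.18 to -0.42, adjusted p = 0.320) and 0.32 in A17α-MHCKO (SE 0.17, -0.07 to 0.70, adjusted p = 0.811). For genotype it was -0.80 after saline (SE 0.17, adjusted p = 0.223) and 0.32 after doxorubicin (SE 0.17, adjusted p = 1.0). Both values of -0.80 use the same 3 A17fl/fl + NS libraries. They were among the 6.58% of all genes lower at an unadjusted p under 0.05 with doxorubicin in A17fl/fl, where 4.11% were higher, and among the 6.53% lower with the knockout after saline, where 3.61% were higher. The interaction was 1.12 on the log2 scale (SE 0.25, 0.58 to 1.66, adjusted p = 0.815).

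The call on Abcb1b depended on the test. DESeq2 gave an adjusted p of 0.0129 for doxorubicin in A17fl/fl, 0.00758 for genotype after saline and 0.0419 for the interaction, while calling 151, 174 and 21 of all genes. The edgeR likelihood ratio test gave 0.0448 and 0.0341 for the first of these and the second, and 0.137 for the interaction, while calling 128, 160 and 11 of all genes. Leaving out A17fl/fl + NS replicate 2, the quasi-likelihood test gave adjusted p-values of 0.0477 and 0.0362, while calling 391 and 672 of all genes, where the fit with all libraries called 0 and 3. Without A17fl/fl + NS replicate 1, the library with raised immune and fibroblast markers, the changes were -0.61 (adjusted p = 0.255) and -0.61 (adjusted p = 0.187) and the interaction 0.93 (adjusted p = 0.437). The part that immune cells had in the level of Abcb1b in that library was not tested.

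Abcb1a, the P-glycoprotein gene of the endothelium of the brain and other barriers, did not follow Abcb1b. It was at 30.4, 30.3 and 69.0 CPM in A17fl/fl + NS, at 36.2, 39.0 and 51.3 CPM in A17fl/fl + DOX, at 54.4, 43.0 and 48.4 CPM in A17α-MHCKO + NS and at 38.4, 40.7 and 40.1 CPM in A17α-MHCKO + DOX. A17fl/fl + NS replicate 3 was the highest of all. The doxorubicin change was -0.03 (SE 0.28, adjusted p = 0.975) in A17fl/fl, and 0.48 (adjusted p = 0.233) without that library. In A17α-MHCKO all 3 doxorubicin libraries were below the 3 saline libraries, with a log2 fold change of -0.29 (SE 0.28, adjusted p = 0.886). Its nearest genes were Sh3rf2 (r = 0.947) and P2rx5 (r = 0.941).

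Abcb1b made up 38.6%, 31.7% and 15.7% of the summed Abcb1 FPKM in A17fl/fl + NS and 18.0%, 17.4% and 16.6% in A17fl/fl + DOX. The share was 13.2%, 18.0% and 15.2% in A17α-MHCKO + NS and 23.9%, 20.6% and 20.5% in A17α-MHCKO + DOX. It was higher in every doxorubicin library than in every saline library of the knockout, and A17fl/fl + NS replicate 3, where Abcb1a was highest, had a share within the range of the A17α-MHCKO + NS libraries. The sum of both genes was 50.1 to 87.1 CPM in A17fl/fl + NS, 47.4 to 65.8 in A17fl/fl + DOX, 56.4 to 66.1 in A17α-MHCKO + NS and 54.7 to 55.6 in A17α-MHCKO + DOX. The shares depend on the lengths used in the FPKM, 9899 bases for Abcb1b and 7008 for Abcb1a. The genes are close paralogs, and fragments that match both could have been assigned to either by the counting.

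**Figure D4:**
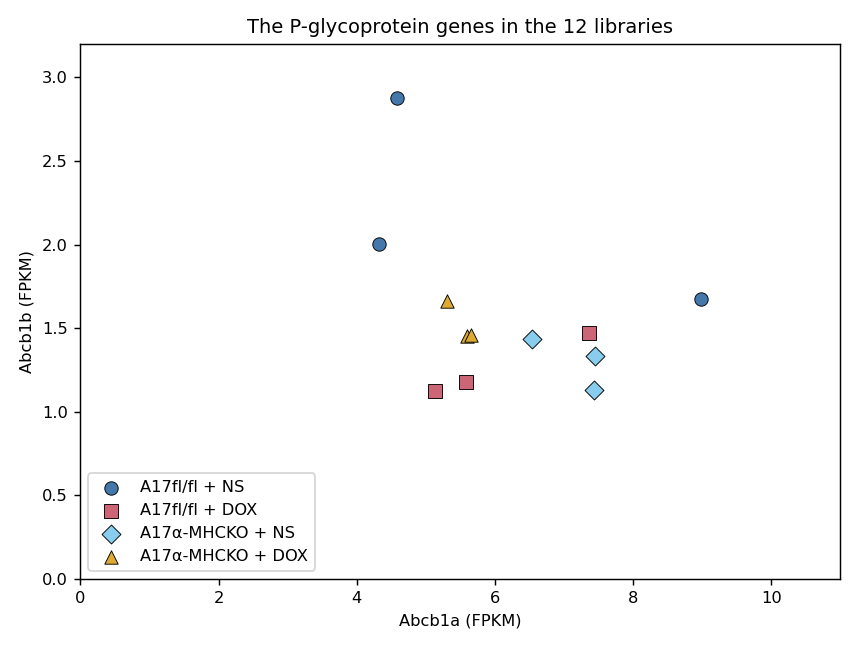
Abcb1b against Abcb1a (FPKM on both axes) in the 12 libraries, with 1 point per mouse and a marker for each group. The A17fl/fl + NS points lie apart from each other along both axes, from 4.33 to 8.98 FPKM of Abcb1a and from 1.68 to 2.87 FPKM of Abcb1b, while the 3 A17α-MHCKO + DOX points lie close together.

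Abcc1, which exports drugs and their glutathione conjugates, was at 56.3, 33.3 and 46.0 CPM in A17fl/fl + NS and at 32.6, 33.7 and 39.0 CPM in A17fl/fl + DOX. It was at 32.3, 38.0 and 31.2 CPM in A17α-MHCKO + NS and at 28, 39.6 and 29.5 CPM in A17α-MHCKO + DOX. The 2 highest values were of saline-treated A17fl/fl hearts, but the groups overlapped. The doxorubicin change in A17fl/fl was -0.37 (SE 0.20, adjusted p = 0.525), and the genotype change after saline -0.42 (SE 0.20, adjusted p = 0.513). Without A17fl/fl + NS replicate 1 these were -0.18 and -0.23, and without replicate 2 of that group -0.54 and -0.59. The nearest genes were Zfp384 (r = 0.938) and Cpm (r = 0.922).

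Abcg2, the pump of stem cells and capillary endothelium, was at 46.3, 30.6 and 54.1 CPM in A17fl/fl + NS and at 37.4, 33.5 and 38.4 CPM in A17fl/fl + DOX. It was at 46.1, 29.4 and 45.0 CPM in A17α-MHCKO + NS and at 44.7, 37.6 and 44.0 CPM in A17α-MHCKO + DOX. Replicate 2 was the lowest in each group, and the labels do not say whether the numbers link mice across groups. Doxorubicin gave -0.26 (SE 0.22, adjusted p = 0.685) in A17fl/fl and 0.07 (SE 0.22, adjusted p = 0.978) in A17α-MHCKO. The A17fl/fl value was -0.46 without A17fl/fl + NS replicate 2 and -0.08 without replicate 3 of that group. The gene most like Abcg2 was Ly6c1 (r = 0.924), a surface protein of capillary endothelium and monocytes, followed by Gm12263 (r = 0.918). Summed endothelial markers were 1423 to 2329 CPM in A17fl/fl + NS and 1921 to 2386 CPM in the other groups.

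Of 14 tested genes among the other drug transporters, 0 passed an adjusted p under 0.05. At an unadjusted p under 0.05, 1 was higher and 2 were lower under doxorubicin in A17fl/fl against 10.7% of all genes, and 1 was higher and 0 lower in A17α-MHCKO against 6.42%. For genotype after saline 1 was higher and 2 were lower against 10.1%, and after doxorubicin 0 were higher and 2 lower against 2.7%. The median change of the list under doxorubicin was 0.02 in A17fl/fl (-0.13 without A17fl/fl + NS replicate 1) and -0.05 in A17α-MHCKO. Slc29a2, an equilibrative nucleoside transporter, was at 5.08, 5.62 and 6.39 CPM in A17fl/fl + NS and at 9.18, 9.60 and 10.8 CPM in A17fl/fl + DOX. It was at 7.10, 9.41 and 9.07 CPM in A17α-MHCKO + NS and at 6.11, 8.77 and 6.62 CPM in A17α-MHCKO + DOX. Its doxorubicin change was 0.79 in A17fl/fl (SE 0.19, adjusted p = 0.333) and -0.25 in A17α-MHCKO (SE 0.19, adjusted p = 0.858), with an interaction of -1.04 (SE 0.27, adjusted p = 0.828). Abcb4, the phosphatidylcholine translocator beside the Abcb1 genes in the ABC family, had a doxorubicin change of -0.01 in A17fl/fl and 0.83 in A17α-MHCKO (SE 0.26, adjusted p = 0.705). Abcc4 (MRP4), a pump of cyclic nucleotides, gave -0.57 (SE 0.18, adjusted p = 0.372) in A17fl/fl.

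For the carbonyl reductases Cbr1 and Cbr3 no comparison passed the test. Cbr1 was at 16.9, 20.9 and 21.9 CPM in A17fl/fl + NS, at 18.2, 20.1 and 20.1 CPM in A17fl/fl + DOX, at 22.7, 20.6 and 20.3 CPM in A17α-MHCKO + NS and at 27.7, 19.1 and 21.6 CPM in A17α-MHCKO + DOX. The groups of each comparison overlapped, and the doxorubicin change was -0.03 (SE 0.16, 95% interval -0.38 to 0.31) in A17fl/fl and 0.10 (SE 0.16, -0.24 to 0.45) in A17α-MHCKO. Cbr3 was at 6.23, 4.37 and 4.07 CPM in A17fl/fl + NS, at 4.84, 4.25 and 4.79 CPM in A17fl/fl + DOX, at 4.01, 4.15 and 4.82 CPM in A17α-MHCKO + NS and at 5.54, 4.74 and 4.31 CPM in A17α-MHCKO + DOX. Its highest library was A17fl/fl + NS replicate 1, and its groups overlapped. Without that library its doxorubicin change in A17fl/fl was 0.13. The doxorubicin change of Cbr3 was -0.08 (SE 0.21, -0.54 to 0.38) in A17fl/fl and 0.17 (SE 0.21, -0.29 to 0.63) in A17α-MHCKO. Cbr3 made up 15.7% to 28% of the FPKM of both genes. Cbr1 was most like Eif4a2 (r = 0.920) and Fnta (r = 0.908), and Cbr3 like Tmem251 (r = 0.943) and Eef1b2 (r = 0.936). Gm5678, a sequence related to Cbr1, held 0 counts in every library.

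Among 19 other tested genes of carbonyl and quinone reduction, 0 passed an adjusted p under 0.05. At an unadjusted p under 0.05, 6 were lower and 1 was higher under doxorubicin in A17fl/fl, against 10.7% of all genes in either direction. For genotype after saline 6 were lower and 1 higher, against 10.1%. Both comparisons use the same 3 A17fl/fl + NS libraries, which also enter the interaction, so they are not separate evidence. Under doxorubicin in A17α-MHCKO 2 were higher and 0 lower against 6.42% of all genes, and for the interaction 4 were higher and 0 lower against 5.99%. The median change of the list was -0.29 under doxorubicin in A17fl/fl and 0.14 in A17α-MHCKO, beside -0.04 and 0.00 for all tested genes. Without A17fl/fl + NS replicate 1 the median in A17fl/fl was -0.05, with 3 genes lower and 0 higher against 10.2% of all genes, and for genotype after saline 5 were lower and 2 higher against 10.2%. Nqo1, a quinone reductase that spares cells the semiquinone, was at 57.6, 32.1 and 75.4 CPM in A17fl/fl + NS and at 34.6, 31.7 and 40.4 CPM in A17fl/fl + DOX. It was at 26.8, 28.6 and 30.2 CPM in A17α-MHCKO + NS and at 53.0, 38.0 and 45.2 CPM in A17α-MHCKO + DOX, where all doxorubicin libraries were above all saline libraries. The Nqo1 changes were -0.63 (SE 0.25, adjusted p = 0.432) and 0.67 (SE 0.25, adjusted p = 0.729), with an interaction of 1.3 (SE 0.36, adjusted p = 0.828).

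Cbr2, a reductase of the same family as Cbr1 that is best known from lung, was at 61.9, 62.8 and 33.8 CPM in A17fl/fl + NS and at 29.9, 36.2 and 25.5 CPM in A17fl/fl + DOX. It was at 21.1, 33.4 and 24.4 CPM in A17α-MHCKO + NS and at 45.4, 35.7 and 29.1 CPM in A17α-MHCKO + DOX. Groups overlapped under doxorubicin in both genotypes. Its doxorubicin change was -0.79 (SE 0.27, adjusted p = 0.390) in A17fl/fl and 0.48 (SE 0.27, adjusted p = 0.811) in A17α-MHCKO, with an interaction of 1.27 (SE 0.38, adjusted p = 0.828). Hsd11b1, which reduces keto groups of steroids and drugs, gave -1.34 (SE 0.40, adjusted p = 0.358) and 0.71 (SE 0.40, adjusted p = 0.817), with an interaction of 2.04 (SE 0.56, adjusted p = 0.828). Por, the electron donor of cytochromes P450 that can also reduce doxorubicin by a single electron, gave -0.50 (SE 0.18, adjusted p = 0.414) and 0.14 (SE 0.18, adjusted p = 0.917), with an interaction of 0.64 (SE 0.26, adjusted p = 0.828). A17fl/fl + NS replicate 1 was the highest library for Hsd11b1 at 53.7 CPM and for Por at 102 CPM, against at most 36.6 and 63.0 CPM in the others. Without it their changes in A17fl/fl were -0.88 (adjusted p = 0.456) and -0.22 (adjusted p = 0.532).

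Slc28a3 was nearly silent. Its only counts, 2 in all, were in A17fl/fl + NS replicate 2, and the other 11 libraries held 0, where 0 counts allow a level of up to 0.130 to 0.195 CPM (3 counts of the library, counting error only). Each group was under this floor, so no fold change is given, and no difference was detectable at this depth. The exact permutation test (two-sided) of log2 CPM gave p = 1 in each comparison, where 3 mice against 3 cannot give less than 0.1. No other value was possible with these counts, since at most 1 library of each comparison held any, so the test decides nothing.

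Rarg, the retinoic acid receptor gamma, was at 34.7, 27.8 and 32.3 CPM in A17fl/fl + NS and at 39.7, 38.6 and 45.9 CPM in A17fl/fl + DOX, and these groups did not overlap. It was at 31.5, 33.7 and 42.4 CPM in A17α-MHCKO + NS and at 35.9, 37.4 and 31.0 CPM in A17α-MHCKO + DOX, which overlapped. The doxorubicin change was 0.39 in A17fl/fl (SE 0.15, 95% interval 0.06 to 0.71, adjusted p = 0.421) and -0.05 in A17α-MHCKO (SE 0.15, adjusted p = 0.978), with an interaction of -0.43 (SE 0.21, adjusted p = 0.838). Without A17fl/fl + NS replicate 2 the doxorubicin change in A17fl/fl was 0.31, and without A17fl/fl + DOX replicate 3 it was 0.32, and in neither case was the unadjusted p under 0.05. After doxorubicin Rarg was lower in all 3 A17α-MHCKO hearts than in all 3 A17fl/fl hearts, with a log2 fold change of -0.25 (SE 0.15, adjusted p = 1.0). Top2b, which Rarg can repress, overlapped between these groups, and a relation between the levels of Rarg and Top2b was not tested. Zfp69 (r = 0.912) and Klc1 (r = 0.858) were the genes most like Rarg.

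Of 13 other tested genes of retinoid receptors and metabolism, 0 passed an adjusted p under 0.05, and at an unadjusted p under 0.05 there were 2 higher and 2 lower under doxorubicin in A17fl/fl against 10.7% of all genes and 0 in A17α-MHCKO against 6.42%. The median changes were -0.01 and -0.14, and without A17fl/fl + NS replicate 1 the first was 0.05, with 1 gene higher and 1 lower. Rxrg, a partner of the retinoic acid receptors, gave 0.54 (SE 0.22, adjusted p = 0.432) in A17fl/fl and 0.30 (SE 0.21, adjusted p = 0.853) in A17α-MHCKO. Rxrg was lowest in A17fl/fl + NS replicate 1, at 27.7 CPM against 40.9 to 72.5 CPM in the other 11 libraries. The remaining A17fl/fl + NS libraries were at 49.7 and 44.5 CPM, and A17fl/fl + DOX at 52.4, 62.2 and 62.6 CPM. Cyp26a1, which degrades retinoic acid, gave 2.0 (SE 0.69, adjusted p = 0.401) in A17fl/fl at levels of 0 to 1.52 CPM over all libraries. Aldh1a2, which makes retinoic acid, gave -2.42 (SE 0.88, adjusted p = 0.414) in A17fl/fl, where A17fl/fl + NS replicate 1 was at 109 CPM and the other 11 libraries at 3.40 to 13.9 CPM. Without that library the Aldh1a2 change was -0.30 (adjusted p = 0.865).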

How the data were processed

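Left ventricular RNA of 12 mice was sequenced. Per the labels and the methods of the study, the authors prepared mRNA libraries with a stranded kit for paired-end reads, used CASAVA 1.8, HISAT2 and SAMtools 1.3.1 with the GRCm39 build, and counted fragments by StringTie; the annotation release and strand setting are not given in the sources used here. The deposited table holds raw counts and FPKM per gene. The authors' FPKM equal the deposited counts scaled by library total and by 1 length per gene, and served here for levels between genes.

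Counts were filtered by filterByExpr, scaled by TMM and fitted in edgeR 4.0.16 (R 4.3.3) with a mean for each of 4 groups. Tests were glmQLFTest with Benjamini-Hochberg adjustment over 16101 genes, for 7 contrasts. Standard errors were derived from the F statistics and are approximate. Alternatives used DESeq2 1.42.0, other scalings and filters, a likelihood ratio test, 2 groups alone, a replicate block and leaving out each library. The spread between mice limits precision, with a common dispersion of 0.0842. Counting error adds to it in genes with few counts, such as Cbr3 with 65 to 108 counts per library and Slc28a3 with at most 2. The fit was checked on simulated data for doxorubicin in A17fl/fl. At an adjusted p under 0.05 it recovered 91 of 100 genes changed 4-fold and 42 of 100 changed 2-fold, with 9 false calls. The changed genes were drawn above a mean level that Cbr3 and Slc28a3 do not reach. No simulated library stood apart as A17fl/fl + NS replicate 1 does, so recovery in the real comparison may differ.

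All members were named, with Adam17, list genes of smallest p, up to 3 per list and comparison, relatives of Cbr1, and the 2 genes with the highest correlation with each member. The members and lists were chosen with earlier results of these data known. Akr1c14, Nqo2, Cbr4, Abcc3 and Slc22a4, also named by that rule, passed no adjusted p under 0.05. Promoter sequences are from RefSeq.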

Additional observations from a re-analysis of the deposited data

Results flagged for a closer look

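For Abcb1b the order of the doxorubicin and saline libraries was opposite in the genotypes. All 3 A17fl/fl + DOX libraries were below all 3 A17fl/fl + NS libraries. All 3 A17α-MHCKO + DOX libraries were above all 3 A17α-MHCKO + NS libraries. Of all genes, 13.3% in A17fl/fl and 16.9% in A17α-MHCKO also had groups that did not overlap. The log2 fold change was -0.80 in A17fl/fl (SE 0.17, adjusted p = 0.320, edgeR quasi-likelihood test). In A17α-MHCKO it was 0.32 (SE 0.17, adjusted p = 0.811, same test), so a rise in the knockout was not established. The interaction was 1.12 on the log2 scale (SE 0.25). It was tested and did not pass (adjusted p = 0.815, edgeR quasi-likelihood test), and over the alternatives its adjusted p ranged from 0.0419 with DESeq2 to 0.984 with no filter on low counts.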

How the results depend on the processing

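Of 27 log2 fold changes followed (the 9 tested genes under doxorubicin in each genotype, and Abcb1b, Rarg and Abcc1 for genotype and interaction), 17 kept their sign under every alternative, and 19 of 537 alternative values had the other sign. The number of genes of the group past an adjusted p under 0.05 went from 0 to 1 (Abcb1b) with DESeq2 for doxorubicin in A17fl/fl, genotype after saline and the interaction, and to 1 with the likelihood ratio test for the first of these and the second. Leaving out single libraries gave 0 to 1 for both of those comparisons, 1 without A17fl/fl + NS replicate 2, where 391 and 672 of all genes were called against 0 and 3 in the fit with all libraries (128 and 160 with the likelihood ratio test, 151 and 174 with DESeq2). No member came within the limits of the study under any alternative.

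Changed signs under doxorubicin in A17fl/fl were those of Abcb1a with upper-quartile scaling (0.0043), with the replicate block (0.019) and in leave-one-out fits (-0.24 to 0.48), of Cbr1 with upper-quartile scaling (0.0071) and in leave-one-out fits (-0.14 to 0.041), of Cbr3 in leave-one-out fits (-0.20 to 0.13), and of Top2a in leave-one-out fits (-1.43 to 1.05). In A17α-MHCKO the signs of Top2a (-0.67 to 0.068), Top2b (-0.16 to 0.0079), Abcc1 (-0.23 to 0.030), Abcg2 (-0.12 to 0.18), Cbr1 (-0.059 to 0.22) and Rarg (-0.13 to 0.083) changed when a library was left out. The cause was not tested. Of pairs of mice with the same number, 3 of 18 had a correlation over 0.1 (median 0.0041), beside 4 of 36 pairs with other numbers (median -0.0125). With 3 mice per group these correlations cannot tell whether the numbers pair the mice, and the labels do not say so. With a replicate block Abcb1b was at -0.79 (adjusted p = 0.335) under doxorubicin in A17fl/fl, and 0 members were called. Refitting the lists without A17fl/fl + NS replicate 1 was chosen after seeing the data.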
